A study of Mus musculus with 7 samples.

Results

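Glutamate receptor genes and the genes of their auxiliary subunits were followed in ribosome-bound RNA of mouse medial prefrontal cortex (mPFC). The set was named by gene symbol and holds 34 genes, namely the AMPA, kainate, NMDA, delta and metabotropic receptor subunits with their TARP, cornichon, Shisa and Neto partners. Of these, 33 matched a probe set with a single symbol and were measured, among 22180 genes in all. Grin1, the obligatory NMDA receptor subunit, had no such match and was not analysed here.

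All arrays came from ribosome-tagged (TRAP) mice crossed to an ArcCre line, in which Cre is made under control of the activity-regulated gene Arc and tamoxifen opens the labelling window. Active cells then make GFP-tagged ribosomes, which anti-GFP precipitation recovers with the RNA they hold. In the cocaine group (4 arrays, numbered 4, 5, 6 and 7 in the titles) mice received 15 mg/kg cocaine on 2 days, and in the shock group (3 arrays, numbered 4, 5 and 6) they received 20 shocks of 2 s at 0.5 mA on 2 days. Both groups therefore share the tag, the Cre line, tamoxifen and the antibody, and neither is an unexposed control. Cells that were active but did not drive Arc are outside the label. The labels used here give no strain, age or number of animals per array, so the p-values measure the spread between arrays, which may be partly technical.

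Glutamate is the main excitatory transmitter of the cortex. AMPA receptors carry the fast synaptic current, NMDA receptors admit calcium when glutamate release coincides with depolarisation, kainate receptors modulate release and excitability, and metabotropic receptors signal through G proteins. Auxiliary subunits bind the receptor channels and set their traffic to the membrane and their gating. A change in the AMPA to NMDA receptor balance is a well known feature of synaptic plasticity after drug exposure; the comparison asks whether the transcripts of these proteins under translation differ between cells labelled by cocaine and by shock.

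Values are the deposited log2 levels, so a difference of 1 is a doubling. Each difference is cocaine minus shock and was tested with limma in a fit of all genes. Across the 7 arrays the medians of all probe sets ran from 5.44 to 5.47, and cocaine array 6 had the lowest mean correlation with the other arrays (0.993, against 0.996 for each of the rest). The excitatory neuron marker Slc17a7, the vesicular glutamate transporter, was at 11.73 ± 0.04 on the cocaine arrays (SD, n = 4) and 11.65 ± 0.06 on the shock arrays (SD, n = 3). All 13 measured excitatory cortical markers lay above a background level of 5.457, the 95th percentile of olfactory and vomeronasal receptor genes. All 33 glutamate receptor genes lay above it too, as did 62.1% of all genes, with Grin3b the nearest to it (5.57 to 5.86 on the 7 arrays).

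No glutamate receptor or auxiliary subunit gene passed the adjusted threshold between the groups. With limma's Benjamini-Hochberg adjustment over all genes 0 of 33 members passed 0.05 (smallest adjusted p = 0.938), where the share of all genes passing was 0%. At an unadjusted p under 0.05 there were 2 members, Grin2c and Grik4, both lower in the cocaine group. Of all genes 3.1% passed it in either direction and 1.57% with a lower cocaine mean. With each array left out in turn, 0 members passed it without cocaine array 4 and 1 member without each of the others. That member was Grin2c without cocaine array 5 or shock array 4, Grik4 without cocaine array 7 or shock array 5, Grin3b without cocaine array 6 and Grik1 without shock array 6. The mean was higher in the cocaine group for 16 members and lower for 17, and 50.9% of all genes were higher. The median difference was -0.0016, beside 0.0016 over all genes, and 28 of 33 members differed by less than 0.1 in either direction.

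The precision of the arrays bounds these differences. The pooled within-group SD of a member had a median of 0.075, close to the 0.077 of all genes above the background level. For 27 of 33 members the 95% interval of the difference lay within 1.2-fold in either direction, as it did for 61.7% of all genes and 75.1% of the genes above background. For 32 of 33 it lay within 1.5-fold (94.2% of all genes and 98.2% of the genes above background), and the exception was Grik1. These intervals are for 1 gene at a time and are not adjusted for their number. They do not show that the groups were equal. They bound the average change in the precipitated RNA, and not in tagged cells alone. A shift common to all genes may have been removed by normalization, which the sources used do not describe. Fewer cells of a type and less RNA per cell cannot be told apart in such bulk precipitates.

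**Figure D1:**
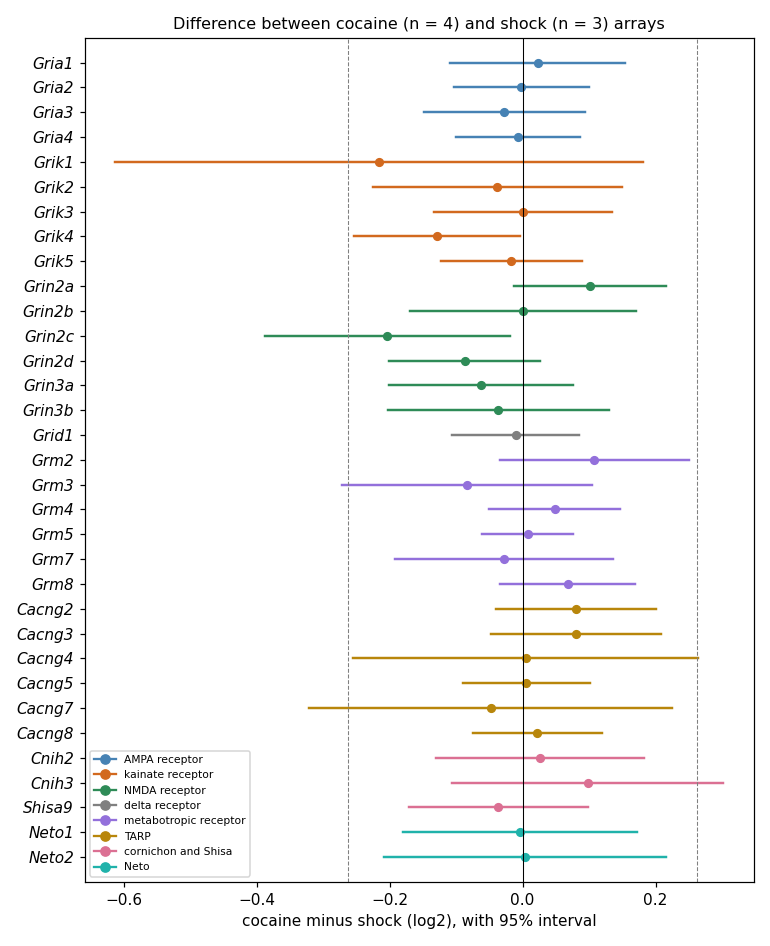
Cocaine minus shock difference (log2, horizontal axis) of the 33 genes, with points for the limma estimate, bars for its 95% interval (4 cocaine and 3 shock arrays) and colours for the family. Dashed lines mark 1.2-fold in each direction; only the bars of Grin2c and Grik4 lie wholly on one side of 0, and the bar of Grik1 is the longest.

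For all 4 AMPA receptor genes the interval of the difference lay within 1.2-fold. Each of the 4 held an identical deposited value on 2 or more arrays, as did 14 of 33 members and 66.9% of all genes. Gria4 held the same value (9.09) on cocaine arrays 4 and 7 and shock arrays 5 and 6. What such repeats do to the width of the intervals was not tested. Gria2, whose subunit makes the channel impermeable to calcium after RNA editing, had 11.58, 11.59, 11.51 and 11.58 on cocaine arrays 4 to 7 and 11.62, 11.58 and 11.50 on shock arrays 4 to 6. The groups overlapped entirely, with a difference of -0.0016 (SE 0.043) and a 95% interval from -6.91% to 7.18% of the linear level. Gria1, the subunit most tied to activity-dependent insertion at synapses, had 10.91, 10.84, 10.91 and 11.06 in the cocaine group and 10.93, 10.91 and 10.88 in the shock group. Its highest and its lowest value were both cocaine arrays (7 and 5), and the difference was 0.02 (SE 0.055, 95% interval -7.27% to 11.3%). Gria3 differed by -0.03 (SE 0.051), and its lowest value was on cocaine array 6 (10.86). Gria4, used widely by fast-spiking interneurons, differed by -0.0071 (SE 0.039). The median over the 4 genes was -0.0044 and turned to 0.0069 after median centring.

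The TARP genes encode the transmembrane partners that carry AMPA receptors to the synapse, and 5 of 6 had a higher mean in the cocaine group with a median of 0.01 (all but Cacng3 turned sign under at least 1 of the alternatives run). Cacng2, the gene of stargazin, had 9.67, 9.56, 9.58 and 9.67 in the cocaine group and 9.61, 9.47 and 9.54 in the shock group. Cocaine arrays 5 and 6 lay inside the shock range. The difference of 0.08 (SE 0.051, limma unadjusted p = 0.159) came from the brighter of 2 probe sets. The dimmer one (mean 6.54) gave -0.08, and their mean gave -0.0017. Cacng3, a partner prominent in cortex, had 11.89, 11.74, 11.86 and 11.84 against 11.84, 11.71 and 11.71. Cocaine arrays 5 and 7 lay inside the shock range, and the difference of 0.08 (SE 0.054) had an unadjusted p of 0.182. Cacng8, prominent in hippocampus and cortex, stayed between 9.75 and 9.86 on all arrays and differed by 0.02 (SE 0.041).

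Cacng7 and Cacng4 varied more between arrays of 1 group than between groups. Cacng7 had 11.27, 11.11, 10.95 and 11.24 in the cocaine group and 11.40, 11.17 and 11.00 in the shock group. In both groups array 4 was the highest and array 6 the lowest. The difference of -0.05 (SE 0.11) turned to 0.02 without cocaine array 6 and to 0.06 without shock array 4. With the array number as a replicate block, an alternative fit, it was -0.08 (SE 0.039), though the labels do not say that a number pairs arrays. Cacng4 had the same order of arrays 4 to 6 in both groups (9.91, 9.75 and 9.57 against 9.88, 9.81 and 9.53). Cacng7 and Cacng8 are adjacent protein-coding genes in the RefSeq annotation, as are Cacng4 and Cacng5. In each pair the neighbour was steadier: Cacng8 spanned 0.11 over the 7 arrays where Cacng7 spanned 0.45, and Cacng5 spanned 0.12 where Cacng4 spanned 0.38.

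Cornichon and Shisa proteins also slow AMPA receptor gating or alter its desensitisation. Cnih2 had 11.32, 11.08, 11.20 and 11.24 in the cocaine group and 11.20, 11.10 and 11.24 in the shock group, with the shock values inside the cocaine range. Cnih3 had 11.09, 10.84, 10.87 and 11.11 against 10.94, 10.92 and 10.77, a difference of 0.10 (SE 0.085, unadjusted p = 0.291). Its cocaine arrays split into a pair above all shock arrays (4 and 7) and a pair among them (5 and 6). Shisa9, whose product CKAMP44 modulates short-term plasticity, differed by -0.04 (SE 0.056).

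Among kainate receptor genes, Grik4 and Grik1 had the differences furthest from 0. Grik4, a high-affinity subunit that assembles with Grik1 to Grik3 products, had 7.43, 7.50, 7.40 and 7.50 on cocaine arrays 4 to 7 and 7.68, 7.50 and 7.58 on shock arrays 4 to 6. Shock array 5 met the top of the cocaine range while the other shock arrays lay above it. The difference was -0.13 (SE 0.052, unadjusted p = 0.0449, adjusted p = 0.938 by limma). It kept its sign without each array in turn, from -0.17 without shock array 5 to -0.08 without shock array 4, the highest. After median centring it was -0.12 (limma unadjusted p = 0.0676). With the array number as a replicate block it was -0.14 (SE 0.064, limma unadjusted p = 0.096).

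Grik1 encodes a subunit used by many cortical interneurons and was the most variable gene of the set, with a pooled SD of 0.25. It had 7.08, 7.14, 6.66 and 6.95 in the cocaine group and 7.38, 7.31 and 6.83 in the shock group. The arrays numbered 6 were the lowest of both groups, and shock array 6 lay below cocaine arrays 4, 5 and 7. The difference was -0.22 (SE 0.17, unadjusted p = 0.237), with a 95% interval from -34.6% to 13.3%. It was -0.39 without shock array 6, -0.11 without shock array 4 and -0.12 without cocaine array 6. With the array number as a replicate block it was -0.21 (SE 0.05, limma unadjusted p = 0.015, adjusted p = 0.871). Nothing in the labels says that a number pairs arrays. Inhibitory neuron markers, as the mean deviation of 17 measured genes from their own means, ranged from -0.06 to 0.02 on the cocaine arrays and from -0.01 to 0.10 on the shock arrays. That score was highest on shock array 6, where Grik1 was low. Of the 17 markers 7 were higher and 10 lower in the cocaine group, and 15 lay above background; their part in the Grik1 values was not tested.

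The remaining kainate receptor genes had differences close to 0. Grik2, the main subunit of principal cells, had 8.78, 8.65, 8.46 and 8.73 against 8.75, 8.67 and 8.67, with cocaine array 6 the lowest by a wide margin. Without that array its difference of -0.04 (SE 0.079) became 0.03. Grik3 and Grik5 differed by 0.0011 (SE 0.056) and -0.02 (SE 0.044). The Neto proteins, auxiliary subunits of kainate receptors, were alike in profile. Neto1 had 10.42, 10.22, 10.32 and 10.31 in the cocaine group and 10.45, 10.19 and 10.32 in the shock group, and Neto2 had 9.36, 9.13, 9.22 and 9.14 against 9.36, 9.05 and 9.22. In both genes and both groups array 4 was the highest, array 5 was the lowest and array 6 lay between them. The group means were nearly equal, with differences of -0.0038 (SE 0.074) for Neto1 and 0.0035 (SE 0.089) for Neto2.

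**Figure D2:**
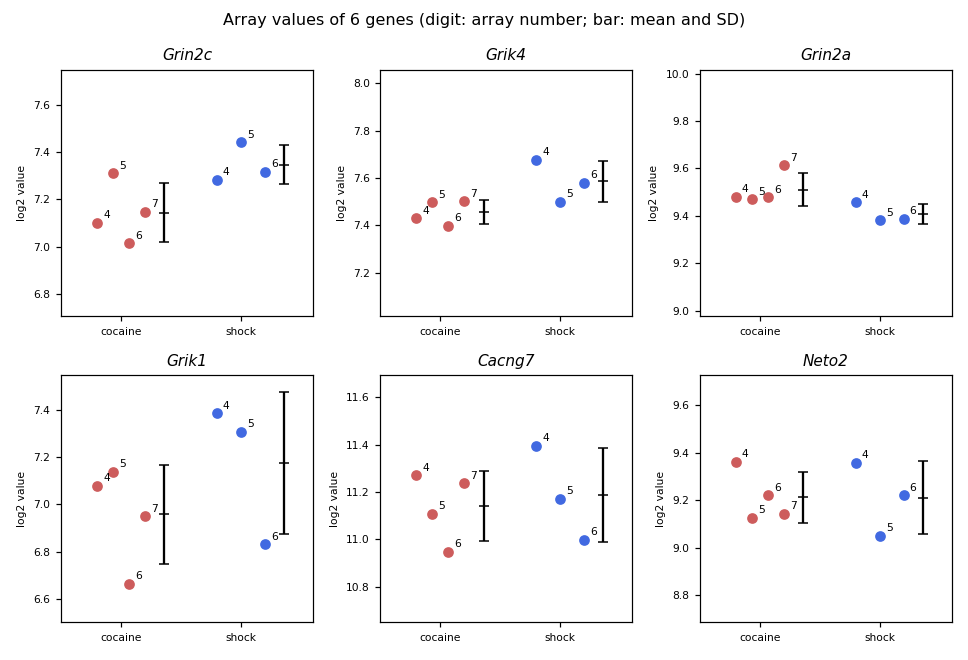
Log2 value (vertical axis) of Grin2c, Grik4, Grin2a, Grik1, Cacng7 and Neto2 on each array (points, with the array number beside them; black bars give mean and SD of 4 cocaine and 3 shock arrays; every panel spans the same log2 range). Grin2a is the one with no overlap of the groups, while in Cacng7 and Neto2 the arrays of the same number lie at similar heights in both groups.

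NMDA receptor genes had differences of both signs. Grin2a, the subunit that comes to prevail in mature cortex and gives faster currents, had 9.48, 9.47, 9.48 and 9.61 on the cocaine arrays and 9.46, 9.38 and 9.39 on the shock arrays. It was the 1 member of 33 whose groups did not overlap, where 2.37% of all genes did not, and the gap between the closest arrays was 0.01. The difference was 0.10 (SE 0.048, unadjusted p = 0.0724, adjusted p = 0.938 by limma) and was 0.07 without cocaine array 7, the highest. Grin2b, the subunit with slower currents, had 11.32, 11.34, 11.22 and 11.36 against 11.38, 11.40 and 11.15. The cocaine values lay inside the shock range, with a difference of 0.00019 (SE 0.071).

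Grin2c had the largest difference of the NMDA receptor genes, with 7.10, 7.31, 7.01 and 7.15 on cocaine arrays 4 to 7 and 7.28, 7.44 and 7.32 on shock arrays 4 to 6, so that only cocaine array 5 reached the shock range. The difference was -0.20 (SE 0.077, 95% interval -23.5% to -1.35%, unadjusted p = 0.0347, adjusted p = 0.938 by limma). It kept its sign without each array in turn (-0.26 to -0.16), and the unadjusted limma p ran from 0.0059 without cocaine array 5 to 0.12 without shock array 5. Its dimmer probe set, below background at 4.56, gave -0.16.

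Grin2c is known in cortex chiefly from astrocytes, and Grm3 is shared by astrocytes and neurons. All 13 astrocyte markers had a lower mean in the cocaine group, with a median of -0.14, and all lay above background (Aqp4, the water channel, at 9.14 against 9.31). The mean deviation of the astrocyte markers was -0.19, 0.10, 0.0082 and -0.18 on cocaine arrays 4 to 7 and -0.01, 0.15 and 0.12 on shock arrays 4 to 6. Cocaine array 5 and shock array 5 were thus the highest of their groups for the markers, as they were for Grin2c, whereas cocaine array 6 was the lowest for Grin2c but not for the markers. The part of astrocyte RNA in the Grin2c difference was not tested.

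The remaining NMDA receptor genes had lower cocaine means, without passing the unadjusted threshold. Grin2d, found largely in interneurons, had 6.70, 6.69, 6.60 and 6.54 against 6.73, 6.73 and 6.70, with cocaine array 4 equal to shock array 6. Its difference was -0.09 (SE 0.048, unadjusted p = 0.111). Grin3a, which lowers calcium entry, differed by -0.06 (SE 0.058), and Grin3b by -0.04 (SE 0.07). Grid1, the delta receptor that bridges to presynaptic neurexins through cerebellins, differed by -0.01 (SE 0.04). Cocaine array 4 was its lowest value (8.52), and the other arrays lay between 8.61 and 8.65.

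Of the metabotropic receptors, Grm2 had the largest difference. Grm2, a presynaptic brake on glutamate release, had 8.97, 8.97, 9.07 and 9.04 in the cocaine group and 8.78, 8.97 and 8.97 in the shock group. Cocaine arrays 4 and 5 and shock arrays 5 and 6 held an identical value, so the difference of 0.11 (SE 0.059, unadjusted p = 0.113) rested on shock array 4 and cocaine arrays 6 and 7. It was 0.05 without shock array 4. The related group II receptor gene Grm3 had 9.82, 10.12, 9.99 and 9.90 against 9.95, 10.05 and 10.12, a difference of -0.08 (SE 0.079). Its cocaine range contained nearly the whole shock range. Cocaine array 4 was the lowest of all arrays for Grm3 and for the astrocyte markers. Shock array 6 was the highest for Grm3, but shock array 5 was the highest for the markers. The part of astrocyte RNA in the Grm3 values was not tested.

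Grm5, the postsynaptic receptor coupled to calcium release through Homer proteins, was the steadiest gene of the set. It lay between 9.91 and 9.95 on the 7 arrays, with a difference of 0.0076 (SE 0.029) and a 95% interval from -4.16% to 5.44%. In the deposited values Grm5 was identical on cocaine arrays 4 and 5 and shock arrays 4 and 5. A value repeated on 2 or more arrays occurred in 14 of 33 members and in 66.9% of all genes. The presynaptic group III receptor genes Grm4 and Grm8 differed by 0.05 (SE 0.041) and 0.07 (SE 0.043), with cocaine arrays 6 and 7 the highest in both. Grm7, of the same group, differed by -0.03 (SE 0.069) with its brighter probe set and by 0.14 (SE 0.062) with its dimmer one.

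**Figure D3:**
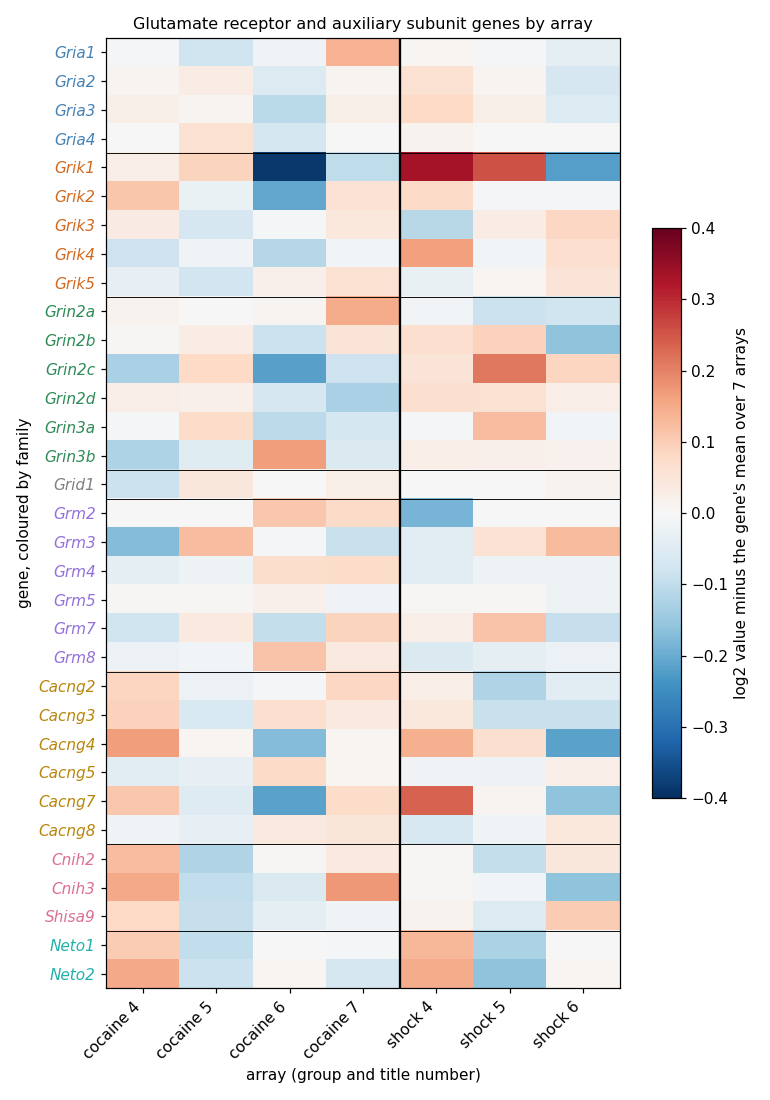
Deviation of each gene on each array from its own 7-array mean (colour, log2 scale; red above and blue below the mean), with genes in rows by family and arrays in columns (4 cocaine left of the black line, 3 shock right of it). Grik1 has the strongest colours, and Cacng7, Neto1 and Neto2 are red on the arrays numbered 4 of both groups.

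Families were compared as the mean deviation of their genes on each array. The Neto score was highest on shock array 4 (0.14) and cocaine array 4 (0.13), and lowest on shock array 5 (-0.14) and cocaine array 5 (-0.09). The TARP score was also highest on the arrays numbered 4 (0.07 in the cocaine and 0.06 in the shock group). The metabotropic score was instead lowest on the arrays numbered 4 (-0.05 in each group). The kainate score was lowest on cocaine array 6 (-0.14), the array that correlated least with the others. In every family with more than 1 gene the ranges of the cocaine and shock arrays overlapped. Over all 33 genes the score ran from -0.04 to 0.02 on the cocaine arrays and from -0.02 to 0.04 on the shock arrays.

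Several other lists varied more over the same arrays. Immediate early genes (18 of 18 with a higher mean in the cocaine group) had scores from -0.24 to 0.51 on the cocaine arrays and from -0.62 to 0.42 on the shock arrays. Vascular markers, lower in 16 of 16, ran from -0.40 to 0.03 and from -0.0065 to 0.38. Striatal neuron markers were higher in 7 of 9, from -0.02 to 0.17 and from -0.11 to -0.03, and the dopamine receptor gene Drd1 averaged 8.30 against 7.98. Excitatory cortical markers stayed within -0.02 to 0.02 on all arrays. Oligodendrocyte lineage markers, lower in 6 of 12, ran from -0.11 to 0.12 and from -0.09 to 0.04. Microglia markers were lower in 5 of 9, and their score ran from -0.04 to 0.0027 on the cocaine arrays and from 0.0056 to 0.05 on the shock arrays. The scores of the microglia and the striatal markers did not overlap between the groups, those of the microglia markers by a narrow margin. The scores of the other lists overlapped. By limma 0 of 9 microglia and 3 of 9 striatal markers had an unadjusted p under 0.05, beside 3.1% of all genes. The part of these markers in the values of the receptor genes was not tested.

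**Figure D4:**
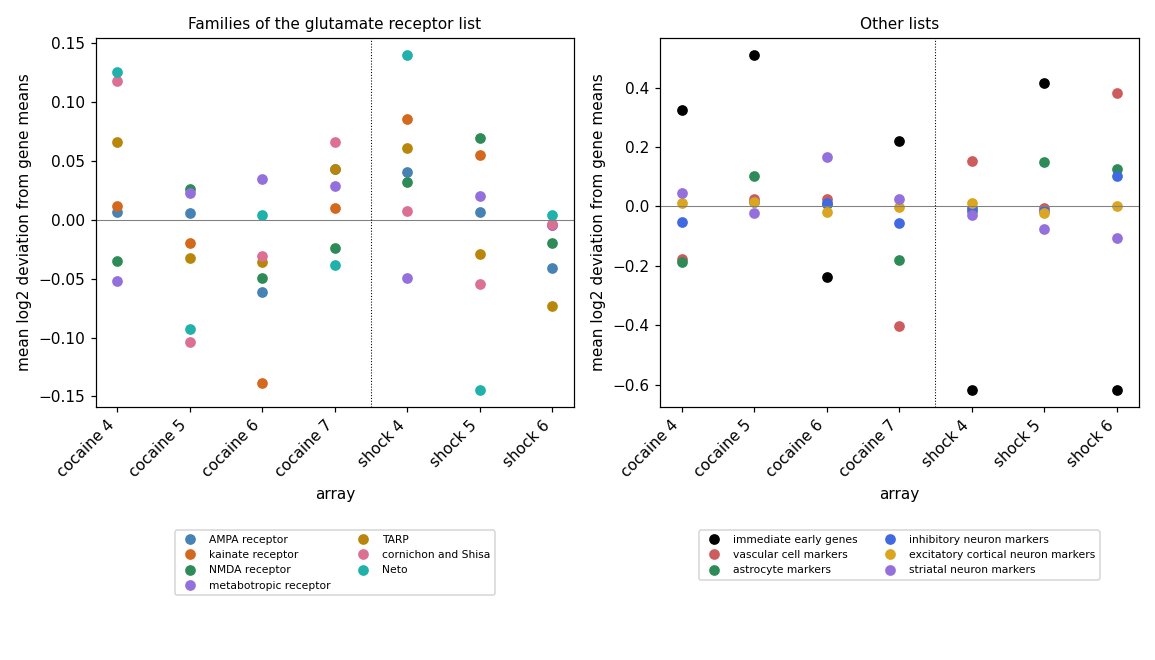
Mean log2 deviation from the gene means (vertical axes, with different scales) on each of the 7 arrays, for the families with more than 1 gene (left) and for other gene lists (right). The glutamate receptor families stay within 0.15 of 0, whereas the immediate early genes span -0.62 to 0.51.

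Genes of the wider glutamate synapse did not pass either. Of 61 listed partners (scaffolds, transporters, organisers and receptor genes outside the set) 56 were measured, 32 higher and 24 lower in the cocaine group, with a median of 0.01. By limma 0 passed at the adjusted threshold and 0 at an unadjusted p under 0.05. Nptx2, a secreted pentraxin that clusters AMPA receptors and is itself activity-regulated, had 9.39, 9.52, 9.36 and 9.38 against 9.09, 9.41 and 9.12. Its difference was 0.20 (SE 0.086) and had the smallest p of the list (limma, unadjusted p = 0.052, adjusted p = 0.938). Shock array 5 lay in the cocaine range, as it did for the score of the immediate early genes. A link between Nptx2 and that score was not tested. Shank3, a postsynaptic scaffold, had 9.02, 9.02, 9.13 and 9.15 against 9.00, 9.00 and 8.87 (difference 0.12, SE 0.055). Its groups did not overlap, where 2.37% of all genes did not. These values are of the brighter of 2 probe sets, and the mean of both gave 0.065 (SE 0.036). The related gene Shank1 differed the other way (-0.08, SE 0.044). Slc17a7 differed by 0.08 (SE 0.042), the synaptic organiser Cbln1 by 0.12 (SE 0.071), and Grasp, which binds group I metabotropic receptors, by 0.14 (SE 0.086).

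Immediate early genes such as Egr1 and Fos encode transcription factors, so the promoters of the receptor genes were searched for the motifs that EGR, AP-1 (Fos with Jun) and CREB factors are known to bind. RefSeq promoters (GRCm38.p6, 250 bases before to 50 after the start) matched 22 of the 34 genes with 27 windows. The EGR motif (GCGTGGGCG or GCGGGGGCG, both strands) was found in 2 of 27 windows, those of Grm3 and Grin1, and in 3.47% of all 32851 windows. The AP-1 motif (TGAGTCA or TGACTCA, both strands) was found in 1 of 27, for Cacng5, and in 5.2% of all, and the CRE motif (TGACGTCA) in 0 of 27 and in 1.79% of all. The windows of the measured genes with a match are shown 5′ to 3′ on the minus strand, with the match in capitals. That of Grm3 is chr5:9725303-9725602 and that of Cacng5 is chr11:107915006-107915305.
Grm3: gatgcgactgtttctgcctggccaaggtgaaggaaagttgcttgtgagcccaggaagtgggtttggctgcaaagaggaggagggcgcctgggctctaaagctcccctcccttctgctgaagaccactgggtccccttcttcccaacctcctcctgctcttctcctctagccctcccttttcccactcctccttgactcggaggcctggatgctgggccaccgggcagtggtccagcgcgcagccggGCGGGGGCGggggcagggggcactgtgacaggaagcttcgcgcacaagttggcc
Cacng5: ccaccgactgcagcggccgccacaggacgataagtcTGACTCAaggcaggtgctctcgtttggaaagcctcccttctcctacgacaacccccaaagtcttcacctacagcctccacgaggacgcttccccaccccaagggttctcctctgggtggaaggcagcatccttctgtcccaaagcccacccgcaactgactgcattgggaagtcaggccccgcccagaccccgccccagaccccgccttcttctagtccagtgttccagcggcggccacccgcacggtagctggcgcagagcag
The Grm3 match begins 4 bases before the start and the Cacng5 match 214 bases before it. Neither gene separated the groups. Cacng5 had 7.93, 7.94, 8.05 and 7.98 against 7.96, 7.95 and 8.00 (difference 0.0058, SE 0.04). A match is a run of letters in the reference and was not measured as a bound site.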

How the data were processed

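Per the labels, biotinylated cRNA from anti-GFP precipitates was hybridised to Affymetrix arrays. The deposited values, 1 column per array, were used as log2 expression, a scale read from their range. Per the submitters' processing notes the tool was Transcriptome Analysis Console. How the values were summarized, background-corrected and normalized is not given in the sources used. Arrays have no read depth, and their number limits the precision.

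Of 41345 probe sets, 23521 had 1 gene symbol in the platform annotation. Each gene was represented by its probe set of highest mean (1082 genes had several), giving 22180 genes. All 33 measured members matched the RefSeq table (GRCm38.p6) by Entrez identifier with the same symbol. Groups came from the labels. Cocaine was compared with shock by limma 3.58.1 in R 4.3.3 (lmFit, eBayes, two-sided, no covariate), with Benjamini-Hochberg adjustment over all genes at 0.05. Intervals are 95% from the moderated fit. The code was tested on simulated data.

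Members, lists and motifs were chosen with earlier results of these data known. Array values are printed for members with an unadjusted p under 0.05 or without overlap, for a fixed list of main subunits (Gria1, Gria2, Grin2a, Grin2b, Grik2, Cacng2, Cacng3, Cnih2, Neto1), and for others chosen after their values were seen. Grm5 and Cacng8 were on the fixed list too, but only their range over the arrays is printed. Of the partners, the 6 with the smallest unadjusted p are named. Alternatives were median centring, quantile normalization, array weights, trend with robust moderation, averaging a gene's probe sets, dropping genes under background, dropping each array in turn, and the array number as a replicate block.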

Additional observations from a re-analysis of the deposited data

Results flagged for a closer look

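Among the 4 cocaine arrays, 4 of 48 measures had 1 array far from the others, by a gap past Dixon's 95% limit for 4 samples; chance alone flags about 1 in 20 groups. Cocaine array 6 was lowest for Gria3 (0.906 of the range). Cocaine array 7 was highest for Grin2a (0.9319) and for Cbln1 (1), where the other cocaine arrays held an identical value. Cocaine array 4 was lowest for the score of the metabotropic receptor genes (0.859). The shock group has 3 arrays and was not examined this way.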

How the results depend on the processing

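Under all 14 alternatives 0 members and 0 of all genes passed the adjusted threshold. The members past an unadjusted p of 0.05 were 1 after median centring, 1 with array weights and 0 to 1 without 1 array (0 without cocaine array 4). The median difference lay between -0.013 and 0.0043 without 1 array, and 12 to 21 members were higher in the cocaine group. Of the 33 members, 13 kept their direction throughout and 20 turned under at least 1 alternative. Ranges for the members that turned when 1 array was left out were Gria1 -0.021 to 0.052, Gria2 -0.036 to 0.028, Gria3 -0.063 to 0.0043, Gria4 -0.028 to 0.016, Grik2 -0.080 to 0.026, Grik3 -0.055 to 0.042, Grik5 -0.039 to 0.0064, Grin2b -0.080 to 0.046, Grid1 -0.027 to 0.016, Grm5 -0.00034 to 0.013, Grm7 -0.081 to 0.021, Cacng4 -0.10 to 0.077, Cacng5 -0.018 to 0.020, Cacng7 -0.14 to 0.056, Cacng8 -0.0039 to 0.050, Cnih2 -0.014 to 0.070, Shisa9 -0.074 to 0.0047, Neto1 -0.069 to 0.062, Neto2 -0.076 to 0.078. The marker gene Gad1, not a member, also turned (-0.090 to 0.048). After median centring these turned: Gria2 0.0096, Gria4 0.0041, Grid1 0.00070, Neto1 0.0075. With the mean of probe sets they were Grm7 0.056, Cacng2 -0.0017, with array weights Gria4 0.0051, Grin2b -0.0015, Cacng5 -0.0034, Neto2 -0.0078, and with quantile normalization Grik3 -0.0018. The cause was not tested.

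With the array number as a replicate block (6 arrays), the median difference was -0.013 and 2 members had an unadjusted p under 0.05, Grik1 (-0.21, SE 0.05, adjusted p = 0.871 by limma) and Grin2c (-0.20). Grik4 (-0.14, SE 0.064) had an unadjusted p of 0.096 in that limma fit. The values Gria1 -0.021, Grik3 -0.013, Grin2b -0.017 turned. Arrays of the same number had deviations correlated at 0.13, 0.064 and 0.16 for numbers 4, 5 and 6 over all genes, at 0.27, 0.15 and 0.31 over genes above background, and at 0.67, 0.58 and 0.76 over the members. Nothing in the labels says that a number pairs arrays. Over all genes shock array 5 correlated best with cocaine array 7 (0.09), so the block was kept as an alternative only.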

Other observations

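Across the groups, the order of arrays 4, 5 and 6 was often shared by the glutamate receptor genes. The highest of these arrays had the same number in the cocaine and the shock group for 20 of 33 members (60.6%), against 33% of the genes above background and 29.7% of all genes, where a tie counts as not shared. The lowest had the same number for 18 members (54.5%), against 33.9% and 29.9%. Both held for 12 members (36.4%), against 16% and 13.6%. Members that share arrays are not independent, and these shares are a description of the 6 arrays with no test. Array 4 was the highest of the 3 in both groups for Neto1, Neto2, Cacng2, Cacng3, Cacng4, Cacng7, Cnih3, Gria1, Gria3, Grik2, Grin2a and Grin2d, array 5 for Grin2b, Grin2c, Grin3a and Grm7, and array 6 for Grik5, Grm8, Cacng5 and Cacng8. The labels do not say what the numbers stand for.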
